A study of Homo sapiens with 12 samples.

Results

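H3K9ac, the acetylated form of lysine 9 of histone H3 that marks active gene starts, was read over 10 genes of the Polycomb repressive complexes and over the chromosome 10 neighbourhood of BMI1 in MOLM-13 cells. The genes were EZH1, EZH2, EED, SUZ12 and JARID2 of Polycomb repressive complex 2, and BMI1, RING1, RNF2, CBX2 and CBX8 of Polycomb repressive complex 1. Members were all H3K9ac regions of the deposited table that overlapped a RefSeq gene body with 5 kb added on each side, and all regions from 22.2 to 22.4 Mb of chromosome 10 (hg38). This gave 36 of 47648 regions, 31 at the genes and 7 in the chromosome 10 window, with 2 at BMI1 in both sets. Each of the 10 genes had at least 1 region. Genes and window were chosen by name and position, but regions were selected on H3K9ac signal called in these libraries, so the presence and place of a region are no finding, and the genes were proposed with earlier results of these data known.

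MOLM-13 is an established line from a patient with acute myeloid leukaemia, known to carry the fusion KMT2A-MLLT3 and a FLT3 internal tandem duplication, and it was grown in RPMI medium with fetal bovine serum and antibiotics. The series asks how blocking the histone acetyltransferase KAT6A changes the chromatin of these cells. Chromatin immunoprecipitation sequencing of H3K9ac was carried out on 3 libraries from cells given WM-1119, a small-molecule KAT6A inhibitor, at 4 µM for 4 days, and on 3 libraries from cells given the solvent DMSO, for which the labels state no duration. All libraries come from 1 cell line with no genetic change between the groups, 6 input samples were not analysed here, and the titles number the replicates without naming cultures. The p-values therefore speak of the spread among these libraries, part of which may be technical.

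Polycomb proteins keep developmental genes silent. Complex 2 methylates lysine 27 of histone H3 through EZH2 or EZH1, which need EED and SUZ12 for activity, while JARID2 helps bring the complex to its targets. Complex 1 attaches ubiquitin to histone H2A through RING1 or RNF2, works with a PCGF protein such as BMI1, and reads the methyl mark through CBX proteins such as CBX2 and CBX8. BMI1 is known for sustaining the self-renewal of blood and leukaemia stem cells and for silencing the INK4 locus. H3K9ac at these genes is a mark on their own chromatin and was not a measure of their RNA, protein or activity.

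The starts of these genes differ in base composition, and 6 of them are shown. BMI1 and EZH2 were chosen by name, and the others as extremes among the remaining genes with a promoter entry. EED had the fewest CpG dinucleotides and SUZ12 the most, level with others. EZH1 had the lowest and JARID2 the highest H3K9ac per kb in its strongest region. Each is the 250 bases before the first annotated start, read 5′ to 3′ on the gene's strand, from RefSeq on GRCh38.p14. Capitals mark matches, on either strand, to CCAAT, the GC box GGGCGG, the E box CACGTG, the ETS core CCGGAAG, the YY1 motif GCCATNTT and the E2F motifs TTTGGCGC and TTTCCCGC. The positions are chr10:22320849-22321098 (plus strand) for BMI1, chr7:148884292-148884541 (minus) for EZH2, chr17:42745041-42745290 (minus) for EZH1, chr11:86244503-86244752 (plus) for EED, chr17:31936757-31937006 (plus) for SUZ12 and chr6:15245819-15246068 (plus) for JARID2.
BMI1: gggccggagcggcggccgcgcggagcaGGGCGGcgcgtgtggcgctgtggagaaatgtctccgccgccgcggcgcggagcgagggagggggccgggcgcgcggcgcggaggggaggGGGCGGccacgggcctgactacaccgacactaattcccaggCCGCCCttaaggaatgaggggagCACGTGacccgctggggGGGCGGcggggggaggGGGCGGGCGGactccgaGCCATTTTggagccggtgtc
EZH2: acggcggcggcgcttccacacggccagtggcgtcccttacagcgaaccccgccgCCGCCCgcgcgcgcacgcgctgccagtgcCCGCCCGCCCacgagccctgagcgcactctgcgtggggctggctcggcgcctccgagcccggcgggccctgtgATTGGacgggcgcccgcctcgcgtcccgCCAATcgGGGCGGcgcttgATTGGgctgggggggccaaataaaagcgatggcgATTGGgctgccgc
EZH1: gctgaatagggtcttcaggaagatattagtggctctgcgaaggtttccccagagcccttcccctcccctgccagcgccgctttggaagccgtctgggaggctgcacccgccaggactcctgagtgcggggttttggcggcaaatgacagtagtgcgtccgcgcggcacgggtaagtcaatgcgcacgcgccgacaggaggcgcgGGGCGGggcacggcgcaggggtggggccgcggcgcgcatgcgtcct
EED: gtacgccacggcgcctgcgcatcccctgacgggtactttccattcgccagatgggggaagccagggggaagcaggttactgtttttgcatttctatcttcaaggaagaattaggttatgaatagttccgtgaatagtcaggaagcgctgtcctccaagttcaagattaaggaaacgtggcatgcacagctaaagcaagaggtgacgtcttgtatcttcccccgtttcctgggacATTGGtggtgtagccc
SUZ12: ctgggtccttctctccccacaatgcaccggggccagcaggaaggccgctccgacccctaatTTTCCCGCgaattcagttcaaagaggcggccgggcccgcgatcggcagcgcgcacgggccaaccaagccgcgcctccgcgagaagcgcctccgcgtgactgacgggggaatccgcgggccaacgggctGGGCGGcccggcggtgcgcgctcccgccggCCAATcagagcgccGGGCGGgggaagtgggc
JARID2: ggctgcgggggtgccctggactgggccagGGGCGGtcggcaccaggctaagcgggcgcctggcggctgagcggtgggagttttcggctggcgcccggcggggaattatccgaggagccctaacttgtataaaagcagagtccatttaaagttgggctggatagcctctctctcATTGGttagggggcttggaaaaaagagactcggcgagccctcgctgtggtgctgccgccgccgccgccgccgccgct

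The RefSeq promoter table held 11 entries for 8 of the 10 genes, since EZH2, BMI1 and JARID2 have more than 1 start; CBX2 and CBX8 were not matched. A GC box was present in 10 of the 11 entries, against 53.7% of 22198 promoters of coding genes, and CCAAT in 4 of 11, against 32.7%. The BMI1 sequence held 6 GC boxes, 1 E box, found in 7.37% of all promoters, and 1 YY1 motif, found in 3.65%. The EZH2 sequence held 4 CCAAT boxes and 4 GC boxes, some of them overlapping. SUZ12 alone among the entries matched TTTCCCGC, which 1.73% of all promoters hold, and none matched CCGGAAG (10.7%) or TTTGGCGC (0.685%). CpG dinucleotides were above the median of 16 in 10 of the 11 entries, and EED, with 11, was the exception. A match is a description of letters and not of binding.

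Depth differed widely. The values are CPM, reads per 1000000 reads in the listed regions, and the 3 WM-1119 libraries held 4542316, about 9996201 and 12705350 reads in regions, against 719331, 1298443 and 7481110 in the 3 DMSO libraries. A floor of 3 reads corresponded to 0.236 to 0.66 CPM in the WM-1119 libraries and to 4.17, 2.31 and 0.401 CPM in the DMSO libraries. DMSO replicates 1 and 2 stood apart: regions below the median level took 8.95% and 7.19% of their CPM, against 2.19% to 3.35% in the WM-1119 libraries and 2.35% in DMSO replicate 3. The starts of all 8 markers of the line (SPI1, CEBPA, CD33, LYZ, FLT3, MYB, HOXA9 and MEIS1) carried regions, whose sum was 3000 to 3800 CPM with WM-1119 and 2370 to 3800 CPM with DMSO. Of 12 markers of other cell types 6 had a region, with a sum of 10.2 to 11.6 CPM with WM-1119 and 10.4 to 22.2 CPM with DMSO, and CD3D, MS4A1, GATA1, HBB, ALB and COL1A2 had none. In a bulk profile fewer cells with the mark and less of the mark per cell cannot be told apart.

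No region of the Polycomb genes or of the BMI1 window passed the main test for a difference between WM-1119 and DMSO. It used the values as deposited, all 6 libraries and treatment as the single term. Of 36 regions 35 averaged 1 CPM or more and were tested with limma on log2(CPM + 1), with Benjamini-Hochberg adjustment over all 44763 tested regions. With 0 member regions under an adjusted p of 0.05, the background was 0.0603% of all regions, 27 in number and all lower. At an unadjusted p under 0.05 limma found 10 of the 35, 4 higher and 6 lower, against 13.3% of all regions, or 2.58% for higher ones. Other limma settings with all 6 libraries found 1 (eBayes untrended and not robust) to 15 (a term added for the replicate number). The share of all regions at that p in these settings is not given. The count tools edgeR and DESeq2 on the reads of 5 libraries called 0 member regions, and edgeR had 0 at an unadjusted p under 0.05. The 3 WM-1119 libraries lay wholly above the 3 DMSO libraries in 4 member regions and wholly below in 2, against 16.9% of all regions without overlap, 3.76% higher and 13.2% lower.

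The direction of the values followed the level of the region. The 18 member regions that averaged 10 CPM or more had a median log2 change of 0.22, with 14 higher and 4 lower, while all 14323 regions of that level had a median of 0.06. At an unadjusted limma p under 0.05 there were 4 higher and 3 lower among the 18, against 16.7% of all regions of that level, with 7.99% for higher ones. The groups did not overlap in 4 higher and 1 lower of the 18, against 19.9% of all, 11.3% higher and 8.56% lower. The 17 tested member regions below 10 CPM had a median of -0.55, with 3 higher and 14 lower, while all 30440 weak regions had a median of -0.65. Over all tested regions the median was -0.47, and it was 0.01 after quantile normalization and 0.30 after median centring, so the sign of a small change depends on the scale chosen. With DMSO replicates 1 and 2 both left out the median of all regions was 0.08.

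**Figure D1:**
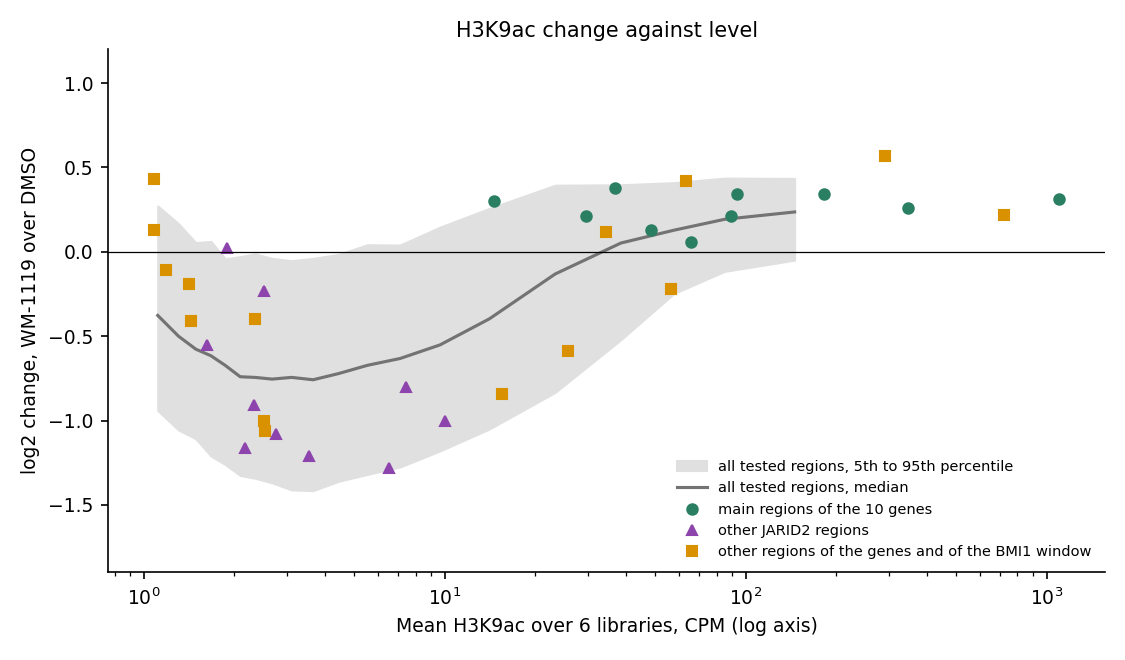
The log2 change of WM-1119 over DMSO (vertical axis) is plotted against the mean H3K9ac of each region in CPM (log horizontal axis), with the members as points and the 5th to 95th percentile (grey band) and median (line) of all tested regions. Of the tested members below 10 CPM 14 of 17 lie below zero, as the grey line does there, and the strongest regions of the 10 genes all lie above zero.

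The BMI1 start carried one of the strongest H3K9ac domains of the genome in these cells. It spanned 22408 bp at chr10:22308156-22330563, ranked 2nd of 47648 regions by mean CPM and 4th by width, and covered the start of BMI1 (chr10:22321099-22331706, plus strand), all of its neighbour COMMD3 and most of the read-through gene COMMD3-BMI1. It held 1077, 1220 and 1336 CPM in WM-1119 replicates 1, 2 and 3, against 774, 939 and 1272 CPM in the DMSO replicates. The groups overlapped, because DMSO replicate 3 exceeded the lower 2 WM-1119 libraries. The means were 1211 ± 130 CPM with WM-1119 and 995 ± 254 CPM with DMSO (SD, n = 3 each), with a log2 difference of 0.31 ± 0.13 (SE; limma adjusted p = 0.353). Without DMSO replicates 1 and 2 it was -0.08. The domain takes in the shown BMI1 promoter sequence as well as the COMMD3 start, so its signal cannot be divided between the genes.

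A second domain of 11608 bp began 681 bp farther on, at chr10:22331245-22342852, over the 3′ ends of BMI1 and COMMD3-BMI1 and the sequence beyond it. It held 739, 753 and 816 CPM in the WM-1119 libraries, against 542, 638 and 827 CPM in the DMSO libraries, and ranked 11th by mean CPM. The highest and the 2 lowest of the 6 values were all DMSO libraries, for a log2 difference of 0.22 ± 0.13 (SE; limma adjusted p = 0.401). Only 84 bp beyond it lay the start region of SPAG6, a gene for a protein of the axoneme of motile cilia, at chr10:22342937-22346086. SPAG6 held 63.4, 47.9 and 45.4 CPM with WM-1119, against 61.2, 63.2 and 57.1 CPM with DMSO, and was the only window region of at least 10 CPM with a lower mean in WM-1119 (log2 change -0.22 ± 0.19 SE, limma adjusted p = 0.510). Its sign was positive after median centring, at 0.55.

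On the upstream side, 52824 bp before the BMI1 domain, a region of 4775 bp at chr10:22250557-22255331 covered the start of the long non-coding gene LOC100130992 and part of the gene LOC105376447 on the other strand. It held 350.0, 342 and 344 CPM in the WM-1119 libraries, against 217, 212 and 275 CPM in the DMSO libraries, with no overlap. The means were 346 ± 4.06 CPM with WM-1119 and 235 ± 35.02 CPM with DMSO (SD, n = 3 each). The log2 change of 0.57 ± 0.14 (SE) had the smallest unadjusted p of the members, 0.000142, but an adjusted limma p of 0.125. It passed the adjusted threshold after background subtraction (limma adjusted p = 0.0255) and without DMSO replicate 3 (limma adjusted p = 0.00545). The unadjusted limma p was 0.000672 after quantile normalization, 0.0743 after median centring and 0.0546 with eBayes untrended and not robust. The unadjusted p was 0.24 with edgeR and 0.0741 with DESeq2. None of these latter settings passed the adjusted threshold. Over all 44763 regions background subtraction called 76. The fit without DMSO replicate 3 called 19637, so a call in that fit is not particular to this region. Over the tRNA gene TRN-GTT2-3, at chr10:22228462-22231065, the libraries held 70.5, 65.6 and 80.8 CPM with WM-1119 and 43.1, 61.6 and 57.8 CPM with DMSO, again without overlap (log2 change 0.42 ± 0.19 SE, limma adjusted p = 0.354). The remaining 2 window regions were 147 bp wide each, with means of 2.53 and 1.08 CPM. EBLN1, the coding gene between 22208475 and 22218015, had no region.

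**Figure D2:**
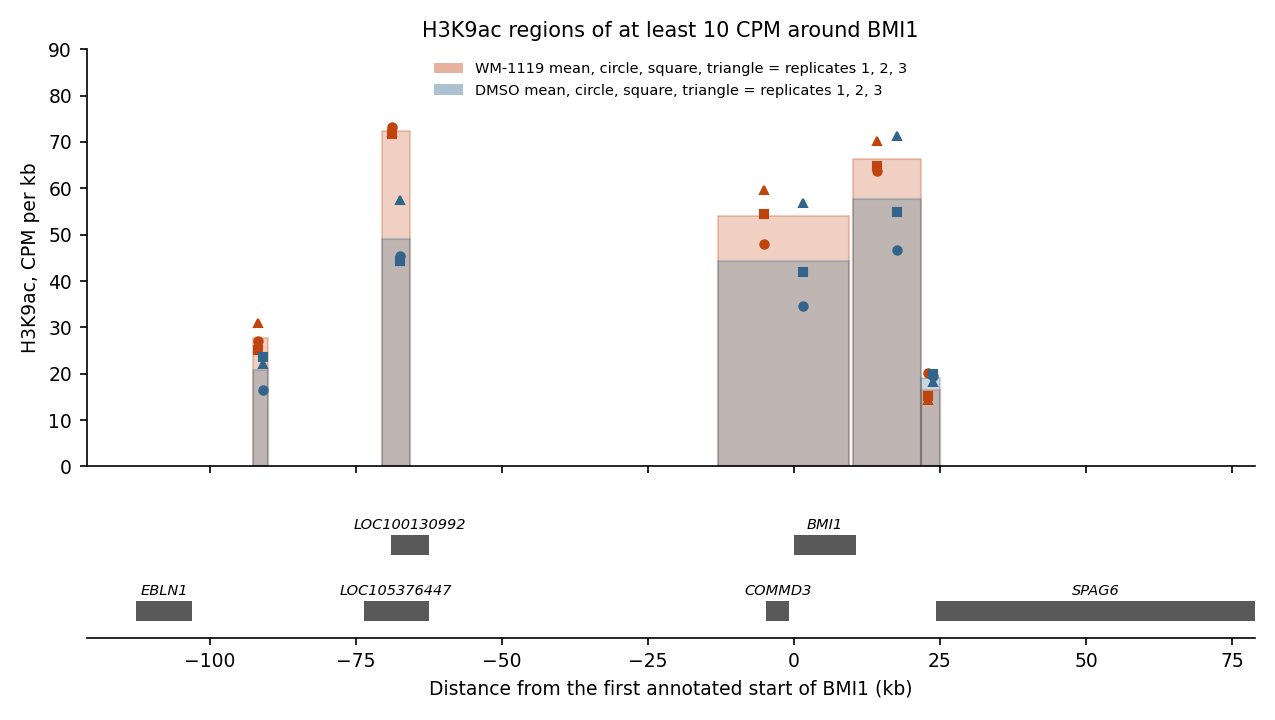
H3K9ac regions of at least 10 CPM in the BMI1 window are drawn to scale by distance from the first annotated start of BMI1 in kb, with heights as CPM per kb (shaded boxes are group means and symbols the 3 libraries of each group), above the gene positions. The WM-1119 libraries lie wholly above the DMSO libraries in the LOC100130992 region and, by less, in the tRNA region at the far left, while in the 2 BMI1 domains DMSO replicate 3 lies among or above the WM-1119 libraries.

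Summed over the window, the regions covered 44839 bp, 22.4% of its length, and took 0.224% of all CPM. The sums were 2303, 2431 and 2623 CPM with WM-1119, against 1646, 1919 and 2489 CPM with DMSO, so that DMSO replicate 3 lay among the WM-1119 libraries. The log2 ratio of the means was 0.28 (exact two-sided permutation p = 0.3, where 0.1 is the smallest p that 3 against 3 allows). Within the window the BMI1 start domain took 49.3% with WM-1119 and 49.0% with DMSO. The downstream domain took 31.4% ± 0.610 with WM-1119 and 33.1% ± 0.165 with DMSO (SD, n = 3; exact permutation p = 0.1), and the LOC100130992 region took 14.1% ± 1.04 with WM-1119 and 11.8% ± 1.23 with DMSO (exact permutation p = 0.2). Adjusted over the 5 shares compared, both p-values were 0.333. The nearest region outside the window on the left lay 65518 bp away with a mean of 8.35 CPM, and on the right 36387 bp away. The right one held 61.4, 54.7 and 49.98 CPM with WM-1119, against 37.5, 32.4 and 35.02 CPM with DMSO.

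The catalytic and core subunits of complex 2 all carried H3K9ac at their starts, EZH2 far more than EZH1. EZH2, the methyltransferase that prevails in dividing cells, held 193, 202 and 212 CPM with WM-1119, against 135, 153 and 196 CPM with DMSO, in a region of 3434 bp at chr7:148882112-148885545. The lowest WM-1119 library was below DMSO replicate 3 and above the other DMSO libraries. The means were 202 ± 9.48 CPM with WM-1119 and 162 ± 31.6 CPM with DMSO (SD, n = 3 each; log2 change 0.34 ± 0.15 SE, limma adjusted p = 0.356). EZH1, the alternative methyltransferase known from resting cells, held 37.0, 27.9 and 30.0 CPM with WM-1119 and 23.6, 28.5 and 29.1 CPM with DMSO at chr17:42744117-42745269. The groups overlapped (log2 change 0.21 ± 0.23 SE, limma adjusted p = 0.588). Per kb, EZH2 stood to EZH1 at a ratio of 2.18 with WM-1119 and 1.995 with DMSO (exact permutation p = 0.6, adjusted p = 0.6 over 6 ratios).

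EED, the subunit that binds the methyl mark and stimulates the enzyme, was the core subunit of complex 2 whose groups did not overlap. Its region of 3093 bp at chr11:86243825-86246917 held 93.6, 96.4 and 97.0 CPM with WM-1119, against 76.5, 88.6 and 82.6 CPM with DMSO. Every WM-1119 library lay above every DMSO library, at a log2 difference of 0.21 ± 0.17 (SE; limma adjusted p = 0.484). SUZ12, the scaffold subunit, held 11.7, 17.6 and 19.0 CPM with WM-1119 and 11.1, 10.0 and 18.1 CPM with DMSO at chr17:31937051-31937571, a region of 521 bp. It rested on 8 and 13 reads in DMSO replicates 1 and 2 (log2 change 0.30 ± 0.33 SE, limma adjusted p = 0.595). The partial copy SUZ12P1 carried a region of 519 bp at chr17:30731657-30732175 with 18.1, 24.5 and 24.9 CPM with WM-1119, against 12.5, 10.8 and 24.2 CPM with DMSO. Reads of SUZ12 and its copy may be shared or lost between them, so the SUZ12 level is uncertain. The next region beyond the 5 kb limit of SUZ12, 706 bp outside it over LRRC37B, had a mean of 40.5 CPM.

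JARID2, the accessory subunit, had the strongest start region of the complex 2 genes and the most further regions. The start region of 5585 bp at chr6:15244228-15249812, which also covers parts of JARID2-DT and JARID2-AS1, held 362, 378 and 386 CPM with WM-1119, against 277, 272 and 409 CPM with DMSO. The highest and both of the lowest values were DMSO libraries (log2 change 0.26 ± 0.14 SE, limma adjusted p = 0.387). The other 10 regions lay inside the gene and were weak. Their sum was 30.2, 19.9 and 17.2 CPM with WM-1119, against 94.5, 64.7 and 18.1 CPM with DMSO. DMSO replicates 1 and 2 were high and DMSO replicate 3 lay within the WM-1119 range.

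Of these 10 inner JARID2 regions 9 had a lower mean log2 value with WM-1119 and 1 a higher one, with a median of -0.96, against -0.65 over all regions below 10 CPM. In each of the 10 the highest value belonged to DMSO replicate 1 or 2, as it did in 94.0% of all regions below 10 CPM. The strongest, at chr6:15365029-15366027, held 5.94, 5.70 and 4.64 CPM with WM-1119 and 22.2, 17.7 and 3.88 CPM with DMSO (log2 change -1.0 ± 0.46 SE, limma adjusted p = 0.356), from 16 and 23 reads in DMSO replicates 1 and 2. Without those 2 libraries 9 of the 10 had a higher value with WM-1119, and the median was 0.26. In the same fit 62.3% of all tested regions below 10 CPM were higher, with a median of 0.14. The 10th percentile of H3K9ac per kb over chromosome 6 regions of 500 to 1200 bp, a measure of background, was 5.73, 5.08 and 4.44 CPM per kb with WM-1119, against 12.2, 10.8 and 3.91 CPM per kb with DMSO. The part of this background in the result was not tested.

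**Figure D3:**
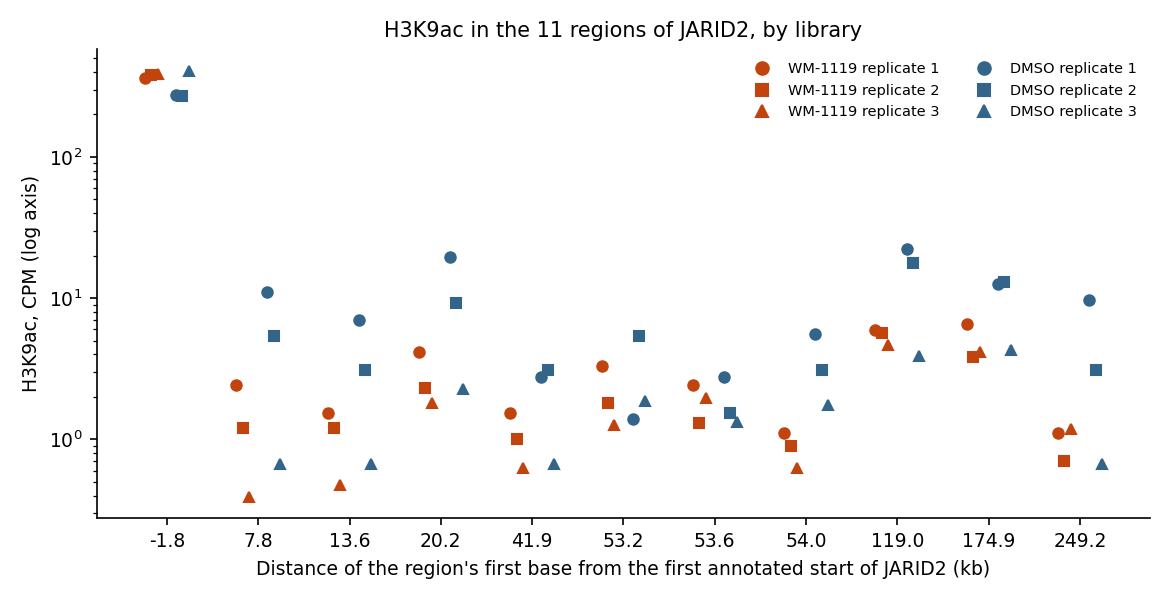
H3K9ac in CPM (log axis) is shown for each library in the 11 JARID2 regions, ordered by distance of the region's first base from the first annotated start in kb. The start region sits at 272 to 409 CPM, while in each inner region the highest symbol is DMSO replicate 1 or 2.

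The subunits of complex 1 that add ubiquitin differed in level. RING1 held 106, 107 and 101 CPM with WM-1119, against 82.0, 73.2 and 93.3 CPM with DMSO, in 1885 bp at chr6:33207421-33209305, a region that also covers MIR219A1. All WM-1119 libraries were above all DMSO libraries (means 104 ± 3.11 CPM with WM-1119 and 82.8 ± 10.1 CPM with DMSO, SD, n = 3 each; log2 change 0.34 ± 0.17 SE, limma adjusted p = 0.375). RNF2, the other ubiquitin ligase of the complex, held 68.0, 66.0 and 67.7 CPM with WM-1119 and 58.4, 67.8 and 67.9 CPM with DMSO at chr1:185044984-185047548. Apart from DMSO replicate 1 its libraries were within a narrow range (log2 change 0.06 ± 0.18 SE, limma adjusted p = 0.848). Per kb the RING1 to RNF2 ratio was 2.11 ± 0.0868 with WM-1119 and 1.75 ± 0.244 with DMSO (SD, n = 3 each). The ratios did not overlap (exact permutation p = 0.1, adjusted p = 0.3 over 6 ratios).

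The other RING1 member regions of at least 10 CPM, upstream and downstream of its start, had lower means with WM-1119. The start region of HSD17B8, a mitochondrial fatty acid synthesis enzyme, at chr6:33204443-33205358, held 22.0, 19.6 and 18.9 CPM with WM-1119, against 32.0, 37.0 and 24.5 CPM with DMSO. It was lower without overlap, but did not pass the adjusted threshold (log2 change -0.59 ± 0.25 SE, limma adjusted p = 0.353). Downstream of RING1, at chr6:33212892-33214100, a region over no annotated gene held 10.6, 10.0 and 9.13 CPM with WM-1119, against 27.8, 27.7 and 8.02 CPM with DMSO. Here DMSO replicates 1 and 2 stood apart and DMSO replicate 3 was the lowest library, and without those 2 the log2 change was 0.27 in place of -0.84. The region nearest to the 5 kb limit on the other side lay 1215 bp outside it, over RXRB and SLC39A7, and held 204, 191 and 202 CPM with WM-1119, against 140, 151 and 216 CPM with DMSO.

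The chromobox genes CBX2 and CBX8, neighbours on chromosome 17, had the lowest signal per kb of the 10. CBX2, a compacting subunit that reads the methyl mark, held 31.9, 47.2 and 46.9 CPM with WM-1119, against 32.0, 29.3 and 33.8 CPM with DMSO, at chr17:79777196-79779270. WM-1119 replicate 1 alone lay among the DMSO libraries (log2 change 0.38 ± 0.22 SE, limma adjusted p = 0.396). CBX8, another reader, held 41.0, 55.7 and 55.2 CPM with WM-1119 and 44.5, 39.3 and 55.2 CPM with DMSO at chr17:79795910-79798631 (log2 change 0.13 ± 0.20 SE, limma adjusted p = 0.704). Its groups overlapped throughout. The CBX8 to CBX2 ratio per kb was 0.925 ± 0.0461 with WM-1119 and 1.11 ± 0.118 with DMSO (SD, n = 3 each), without overlap (exact permutation p = 0.1, adjusted p = 0.3 over 6 ratios). A further CBX8 region at chr17:79800020-79802217 held 34.3 to 38.0 CPM with WM-1119 and 30.6 to 34.7 CPM with DMSO (limma adjusted p = 0.749).

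**Figure D4:**
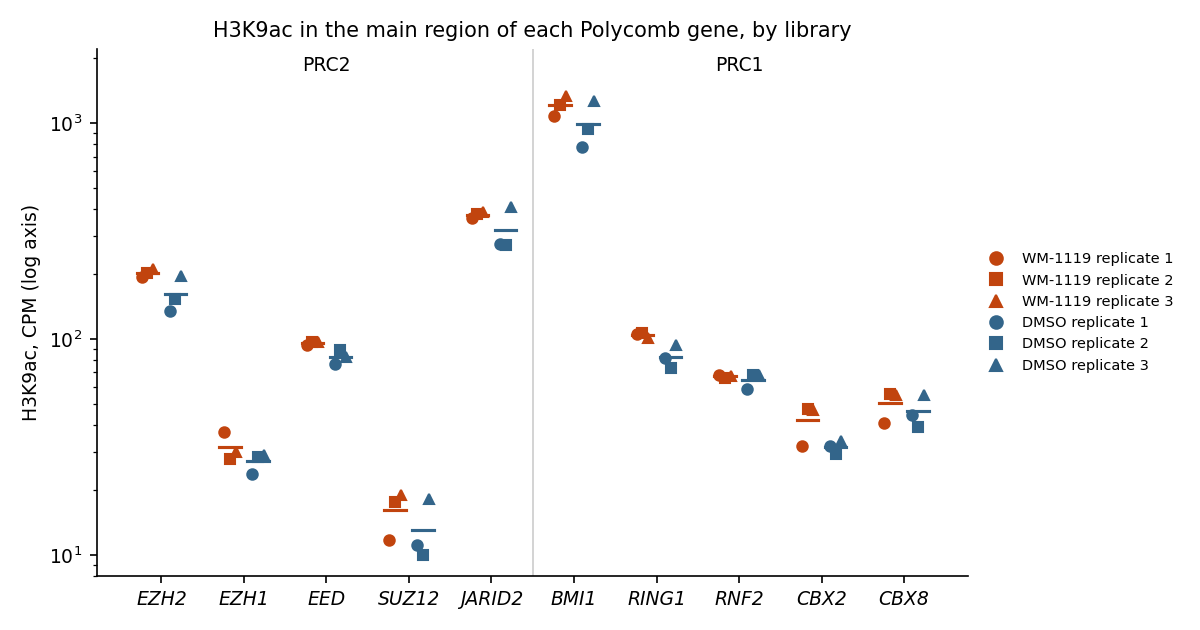
H3K9ac in CPM (log axis) in the strongest region of each of the 10 Polycomb genes, with 1 symbol per library. BMI1 lies at 774 to 1336 CPM and SUZ12 at 10.0 to 19.0 CPM, and the WM-1119 libraries lie wholly above the DMSO libraries for EED and RING1.

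Because the regions differ in width, levels were ordered per kb, over all 6 libraries. JARID2 had 62.2 CPM per kb, EZH2 52.9, RING1 49.7 and BMI1 49.2 CPM per kb. These 4 exceeded 98.1% to 99.3% of all regions, whose median was 9.79 CPM per kb. A lower tier held EED at 28.8, SUZ12 at 28.0, RNF2 at 25.7 and EZH1 at 25.5 CPM per kb, and CBX2 and CBX8 followed at 17.8 CPM per kb each. The steps from JARID2 to EZH2, from BMI1 to EED and from EZH1 to CBX2 held in 6 of 6 libraries. The order of RING1 and BMI1, of EED and SUZ12, and of SUZ12 and RNF2 held in 3 of 6 libraries, so these neighbours did not differ beyond their spread. CBX2 was above CBX8 in every WM-1119 library and below it in every DMSO library, as their ratios above show. By total CPM the order differed, with BMI1 first, JARID2 next and EZH2 after it.

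The strongest regions of the 10 genes had a positive log2 change in 10 of 10 genes, with a median of 0.28, and none passed the adjusted limma threshold. At an unadjusted p under 0.05 there were 2, EZH2 and BMI1, against 16.8% of all regions of 50 CPM or more, with 15.6% for higher ones. The groups did not overlap for 2, EED and RING1, against 20.3% of all regions of that level, 18.3% higher and 2.01% lower. Over all 10830 start regions of coding genes 67.7% were positive, with a median of 0.12. Of all 6457 regions of 50 CPM or more, the level of 6 of the 10, 5529 were positive, with a median of 0.19, while SUZ12, EZH1, CBX2 and CBX8 lay below that level. Without DMSO replicates 1 and 2 the count was 5 of 10 with a median of 0.01, and all start regions had 57.7% and 0.04. After quantile normalization the count was 9 of 10 with a median of 0.10, against a median of 0.08 for all start regions. After median centring it was 10 of 10 with a median of 1.05, against 0.89 for all start regions. The size of the shift at the 10 genes therefore depends on the scale chosen. Without DMSO replicate 3, adjusted limma p-values under 0.05 were reached by 4 of the 10, EZH2, BMI1, RING1 and JARID2, and by 2973 of the 10830 coding start regions. Summed over all regions of a gene, EED alone of the 10 separated the groups, at 96.0, 96.7 and 98.0 CPM with WM-1119, against 79.2, 90.1 and 83.0 CPM with DMSO. The background was 16.3% of 12444 coding genes, 11% higher and 5.24% lower.

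Most member signal lay in regions that reached a gene start. Each region overlapping 1 kb either side of a start was counted whole, also the BMI1 domain of 22408 bp. How much signal lay within 1 kb of a start was not measured. The share of the 10 genes' CPM in such regions was 70.6%, 72.5% and 72.4% with WM-1119, against 67.2%, 67.9% and 71.2% with DMSO. The means were 71.8% ± 1.07 with WM-1119 and 68.8% ± 2.14 with DMSO (SD, n = 3 each), a difference of 3.05 percentage points (exact permutation p = 0.2). DMSO replicate 3 lay within the WM-1119 range. With BMI1 left out, whose downstream domain lies away from a start, the shares were 90.1%, 91.8% and 92.4% with WM-1119, against 79.0%, 81.8% and 91.9% with DMSO (exact permutation p = 0.3). This second share was chosen after seeing the data.

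Other genes of the Polycomb system were read at their start regions, and none passed the adjusted limma threshold. Among 8 tested complex 2 accessory genes 7 had a positive and 1 a negative log2 change, with a median of 0.25. At an unadjusted p under 0.05 there was 1 of 8, against the 16.8% of all regions of 50 CPM or more (15.6% for higher ones). RBBP4, a histone-binding subunit, held 129, 148 and 159 CPM with WM-1119, against 69.5, 105 and 161 CPM with DMSO (log2 change 0.45 ± 0.20 SE, limma adjusted p = 0.363). LCOR had a log2 change of 0.32, and PHF19, which binds methylated histone H3, 0.28. Among 24 complex 1 accessory genes 19 were positive and 5 negative, with a median of 0.21. An unadjusted p under 0.05 was found for 5 of 24, all higher, beside the same 15.6%. Many of the 24, PCGF5 among them, averaged below 50 CPM, where that share does not apply. Of all 7866 regions of 10 to 50 CPM, 139 were higher at that p.

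The largest positive log2 change among the complex 1 accessory genes, 0.60 ± 0.23 (SE), belonged to PCGF5, a paralogue of BMI1. It held 45.4, 35.1 and 39.0 CPM with WM-1119, against 26.4, 23.9 and 27.1 CPM with DMSO, without overlap (limma adjusted p = 0.336). SCMH1, a sex-comb homologue, held 138, 133 and 143 CPM with WM-1119, against 82.0, 97.0 and 133 CPM with DMSO (log2 change 0.44 ± 0.17 SE, limma adjusted p = 0.339). USP7, a deubiquitinase found with complex 1, had a log2 change of 0.43 (limma adjusted p = 0.340). Among 12 genes of the H2A deubiquitinase complex and the lysine 27 demethylases 11 were positive and 1 negative, with a median of 0.22. For 3 of 12 the unadjusted p was under 0.05, all higher, against 15.6% of all regions of 50 CPM or more. OGT, a glycosyltransferase partner of the complex, had 0.42, FOXK2, a forkhead partner, 0.38, and ASXL1, its activating subunit that is often mutated in myeloid disease, 0.35.

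The INK4 genes encode inhibitors of cyclin-dependent kinases, and CDKN2A and CDKN2B among them are classical Polycomb targets. Neither CDKN2A nor CDKN2B had an H3K9ac region within 1 kb of a start. The input samples were not analysed, so whether these cells carry the DNA of both genes was not tested. CDKN2C carried the region with the 3rd highest mean CPM of the whole table, next after the BMI1 domain. It held 1146, 1211 and 1349 CPM with WM-1119, against 690, 856 and 1178 CPM with DMSO, and DMSO replicate 3 lay within the WM-1119 range (log2 change 0.48 ± 0.13 SE, limma adjusted p = 0.251). CDKN2D had a log2 change of 0.19 (limma adjusted p = 0.485). Over the 46 tested genes of these lists 39 were positive with a median of 0.22, and without DMSO replicates 1 and 2 there were 23 of 46 with a median of 0.00.

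**Figure D5:**
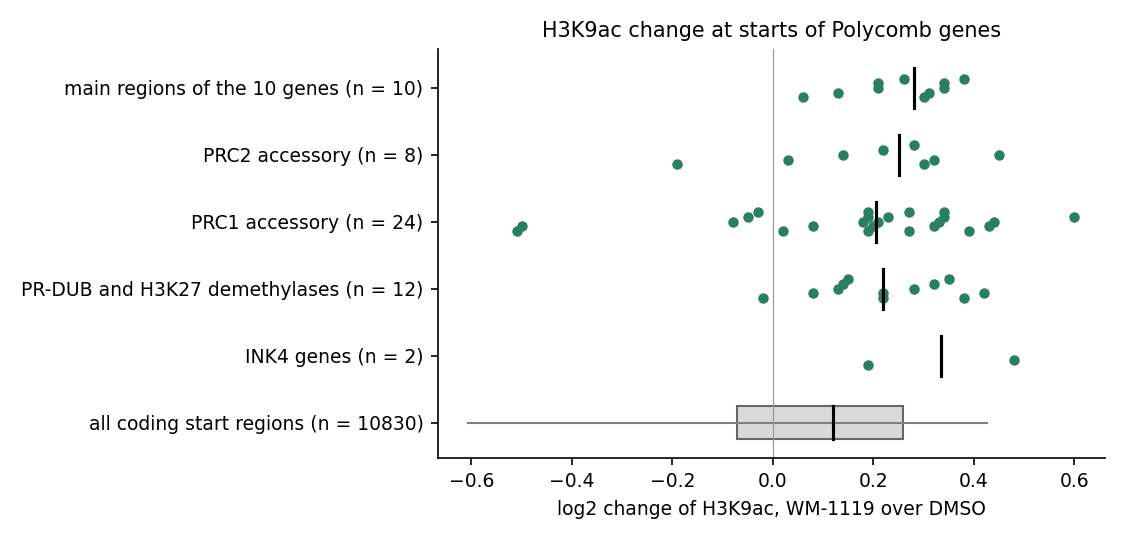
Log2 change of WM-1119 over DMSO at the start regions of the 10 Polycomb genes and of 4 lists of related genes (points are genes, black bars medians), with all 10830 coding start regions in the lowest row (box, quartiles; line, 5th to 95th percentile). The medians lie at 0.28 for the 10 genes and 0.21 to 0.33 for the lists, against 0.12 for all start regions. The 0.33 is the median of 2 INK4 genes. All regions of 50 CPM or more, not drawn, had a median of 0.19, so level adds to the difference from all start regions.

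The start regions whose log2(CPM + 1) followed that of the BMI1 domain most closely across the 6 libraries were those of SPPL3, NFIC and LRRC8D, on chromosomes 12, 19 and 1. Their Pearson correlations rounded to 0.999. Of 8945 start regions compared 18.7% had a correlation above 0.9. These correlations are descriptions, as all points share the same 6 libraries and their differences in depth.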

How the data were processed

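H3K9ac was measured by chromatin immunoprecipitation sequencing in 6 libraries, grouped and numbered by their titles. Per the submitters' processing notes, the tools were Bowtie2, bedtools, MACS2 and SAMtools (no versions) and the build hg38. Region merging and duplicate treatment are not given in the sources used here. Values as deposited are headed TPM by the authors, but are CPM: each library sums to 1000000, and values are whole multiples of 1 step per library whatever the width. For WM-1119 replicate 2 the step lies near a round value, so whole reads are not claimed there and count tests used the other 5 libraries. Region starts were read as counted from 0, and 1 was added.

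limma 3.58.1 (R 4.3.3; lmFit, then trended, robust eBayes) was fitted to log2(CPM + 1) over regions averaging 1 CPM or more. Treatment was the single term, p-values were Benjamini-Hochberg adjusted over all tested regions, and an adjusted p under 0.05 was called. Because of the added 1, log2 changes understate those of low regions. Sums, shares and ratios were compared by exact two-sided permutation. Genes were placed with RefSeq tables of GRCh38.p14; for genes without a promoter entry either annotated end counted as a start, and exon positions were not used. Members and gene lists were chosen with earlier results of these data known. All 10 genes and the coding genes of the window were named whatever their values, with the strongest region of each given in full, and of each list the 3 genes with the smallest p. LOC100130992, the tRNA gene and the inner JARID2 regions were named or counted after their values were seen. Alternatives were pseudocounts of 0.1 and 5, other filters, quantile normalization, median centring, background subtraction, a replicate block, and eBayes untrended and not robust. Further ones were edgeR 4.0.16, DESeq2 1.42.0, no bases added to genes, and leaving out libraries. Leaving out DMSO replicates 1 and 2 takes the spread of the remaining DMSO library to equal that within WM-1119. The model was tested on simulated data. Python 3.11.15, pandas 2.3.3, numpy 2.4.6 and matplotlib 3.10.9 were used.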

Additional observations from a re-analysis of the deposited data

How the results depend on the processing

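Calls of member regions depended on DMSO replicate 3. None was called in the main fit of all 6 libraries, and leaving out 1 library gave 0 to 18 calls. The 18 came without DMSO replicate 3, 7 of them higher, when 19637 of all regions were called as well. Background subtraction gave 1 call, LOC100130992 (log2 change 0.49, limma adjusted p = 0.0255), and 76 calls over all regions. The other filters, pseudocounts, normalizations, edgeR and DESeq2 gave 0. With eBayes untrended and not robust there were 0 member calls and 0 calls over all regions. The replicate block also gave 1, LOC100130992 (adjusted p = 0.00375), and 496 calls over all regions in place of 27. Same-numbered libraries correlated in their deviations at 0.223, 0.0528 and 0.328 for numbers 1, 2 and 3, and 5 of 6 libraries correlated best with their own number. Pairing was accepted only where each of the 3 correlations was above 0.1, which number 2 missed, so the block was not used for the reported values; the data hint at a partial pairing that the labels do not state. The window log2 ratio of 0.28 was 0.15 to 0.46 with 1 library left out, 0.30 under the block, 0.05 after quantile normalization, 0.82 after median centring and -0.02 without DMSO replicates 1 and 2. The 1 gene with separate sums became 0 after median centring, 2 with no bases added to genes and 1 to 4 with 1 library left out. The share of all coding genes in these settings is not given, and groups of fewer libraries separate more easily. These counts are therefore not a change in the genes. The start share of 3.05 points kept its sign in all settings, at 0.601 without DMSO replicates 1 and 2. Of 270 values of 15 single regions, 248 kept direction and side of the threshold, 10 newly passed it and 12 changed sign. Without DMSO replicates 1 and 2 the log2 change was -0.18 for SUZ12, -0.08 for BMI1, -0.11 for its downstream domain, -0.01 for RNF2, -0.14 for CBX8, -0.12 for JARID2 and 0.27 for the region downstream of RING1. RNF2 was -0.07 after quantile normalization, -0.01 to 0.09 with 1 library left out, 0.83 after median centring, 0.45 with edgeR and 0.52 with DESeq2. SPAG6 was -0.37 without WM-1119 replicate 1, -0.13 without WM-1119 replicate 3, 0.55 after median centring, 0.25 with edgeR and 0.31 with DESeq2. The strongest regions of the 10 genes had 0.06 to 0.38 in the main fit and -0.07 to 0.84 after quantile normalization. They had 0.83 to 1.15 after median centring, 0.41 to 0.71 with edgeR and 0.49 to 0.80 with DESeq2. Single libraries also moved other log2 changes by over 1.5 times. Without DMSO replicate 1 the change was 0.14 for BMI1, 0.08 for its downstream domain, 0.12 for EZH1, 0.22 for EZH2, 0.17 for JARID2 and 0.27 for the tRNA region. Without DMSO replicate 2 it was 0.14 for SUZ12, 0.02 for CBX8 and 0.16 for JARID2. Without DMSO replicate 3 it was 0.50 for BMI1, 0.39 for its downstream domain, 0.54 for SUZ12, 0.26 for CBX8, 0.45 for JARID2 and -1.40 for the region downstream of RING1. Without WM-1119 replicate 1 it was 0.10 for EZH1, 0.50 for SUZ12 and 0.27 for CBX8. Without WM-1119 replicates 2 and 3, each left out in turn, it was 0.05 and 0.06 for CBX8, and without WM-1119 replicate 3 it was 0.17 for SUZ12. The causes were not tested. Depth limits weak regions most: 1 read was worth 1.39 and 0.770 CPM in DMSO replicates 1 and 2. The floors concern counting error only, while the SD and SE values describe spread among libraries.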
